A study of Homo sapiens with 6 samples.

Results

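The 9 genes described here serve MHC class I antigen presentation and were measured in A549 cells, an established human lung adenocarcinoma line, after anlotinib or DMSO. The genes were HLA-B, HLA-C, HLA-E, B2M, TAP1, TAP2, TAPBP, ERAP1 and NLRC5. They were found by gene name in the deposited table that holds all 6 libraries, and all 9 of the 9 names matched, among 30483 genes in the table. The anlotinib group was A549 cells kept for 48 h in 5 µM anlotinib, a small-molecule inhibitor of receptor tyrosine kinases (3 libraries). The DMSO group was A549 cells given the solvent for the same 48 h (3 libraries). Both groups share 1 cell line, which was cultured here without immune cells, and the labels do not say whether each library is its own culture. The p-values then cover only library-to-library spread, which may be technical. Expression was measured by RNA sequencing of messenger RNA. Values are normalized counts, meaning the reads on a gene divided by 1 size factor per library.

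MHC class I molecules show the immune system a sample of the peptides made inside a cell. Proteasomes cut proteins into peptides, the TAP1 and TAP2 transporter moves them into the endoplasmic reticulum, aminopeptidases such as ERAP1 trim them, and tapasin (encoded by TAPBP) helps to load them onto a heavy chain paired with beta-2-microglobulin (encoded by B2M). HLA-B and HLA-C present to CD8+ T cells, and HLA-E is also read by receptors of natural killer cells. NLRC5 is the transactivator that drives transcription of class I genes through a conserved promoter module, and interferons raise the whole set. In carcinoma cells, loss of the heavy chains, of B2M or of the transporter is a known route of escape from T cells.

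Promoter windows of 5 of the genes and of PSMB9 are printed because the class I genes are known for shared promoter elements, and because TAP1 lies head to head with PSMB9. Each window runs from 250 bases before to 50 bases after a gene start (RefSeq, GRCh38.p14), 5′ to 3′ on the gene's strand. It is reference sequence and not read from A549 cells. Capitals mark matches on either strand to AANNGAAA (the core of an interferon regulatory factor element), GGGGATTCC (a kappa B core), ATTGG (a Y box) or TGACG (the core of a cyclic AMP response element).
HLA-B, chr6:31357130-31357429, minus strand: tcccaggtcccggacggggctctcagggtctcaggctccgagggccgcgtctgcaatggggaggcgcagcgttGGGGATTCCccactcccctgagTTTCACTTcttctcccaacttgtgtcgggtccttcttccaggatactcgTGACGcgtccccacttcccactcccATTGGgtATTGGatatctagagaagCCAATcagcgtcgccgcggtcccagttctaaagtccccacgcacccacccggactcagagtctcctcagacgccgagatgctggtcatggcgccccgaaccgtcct
HLA-C, chr6:31272043-31272342, minus strand: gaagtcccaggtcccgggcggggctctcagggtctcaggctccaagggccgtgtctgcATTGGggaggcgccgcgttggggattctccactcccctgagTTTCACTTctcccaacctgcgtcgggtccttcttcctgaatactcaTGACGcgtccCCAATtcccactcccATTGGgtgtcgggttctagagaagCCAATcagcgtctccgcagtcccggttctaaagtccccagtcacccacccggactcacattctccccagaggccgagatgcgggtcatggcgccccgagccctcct
B2M, chr15:44711267-44711566, plus strand: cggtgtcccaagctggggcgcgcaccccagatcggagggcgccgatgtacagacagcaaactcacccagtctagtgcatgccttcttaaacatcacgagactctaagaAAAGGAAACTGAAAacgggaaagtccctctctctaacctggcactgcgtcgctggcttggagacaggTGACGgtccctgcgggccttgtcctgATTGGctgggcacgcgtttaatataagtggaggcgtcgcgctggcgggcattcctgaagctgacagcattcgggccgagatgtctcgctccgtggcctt
TAP1, chr6:32853655-32853954, minus strand: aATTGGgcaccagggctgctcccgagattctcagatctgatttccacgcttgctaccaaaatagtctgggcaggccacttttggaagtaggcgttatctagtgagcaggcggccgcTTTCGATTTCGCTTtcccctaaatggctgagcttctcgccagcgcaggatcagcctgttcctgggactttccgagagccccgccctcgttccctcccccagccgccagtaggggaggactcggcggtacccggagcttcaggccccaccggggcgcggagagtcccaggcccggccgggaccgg
PSMB9, chr6:32853942-32854241, plus strand: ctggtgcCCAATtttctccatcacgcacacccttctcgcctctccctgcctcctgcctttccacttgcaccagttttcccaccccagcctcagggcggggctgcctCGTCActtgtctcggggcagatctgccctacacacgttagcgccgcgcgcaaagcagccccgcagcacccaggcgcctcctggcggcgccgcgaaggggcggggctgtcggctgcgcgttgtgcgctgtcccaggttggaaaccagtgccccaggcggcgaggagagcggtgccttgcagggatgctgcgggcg
ERAP1, chr5:96807896-96808195, minus strand: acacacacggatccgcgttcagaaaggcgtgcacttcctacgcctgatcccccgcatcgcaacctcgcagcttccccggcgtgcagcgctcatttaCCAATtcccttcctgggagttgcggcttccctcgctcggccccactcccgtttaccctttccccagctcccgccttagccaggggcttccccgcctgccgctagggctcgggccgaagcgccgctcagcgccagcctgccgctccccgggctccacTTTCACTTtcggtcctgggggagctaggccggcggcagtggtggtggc

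Windows were at hand for 7 of the 9 genes, 9 windows in all, and HLA-E and NLRC5 had none. The interferon regulatory factor core was matched in 8 of the 9 windows, so in at least 1 window of all 7 genes, against 22.8% of the 35116 promoter windows of the genome. The Y box was matched in 5 of the 9 windows, against 34.6% of all windows. The cyclic AMP response element core was matched in 4 of the 9, against 24.6%. The kappa B core was matched in HLA-B only, against 0.285% of all windows. In the printed B2M and TAP1 windows the matches to the interferon factor core overlap in a tandem pair. Such overlapping pairs also occur in the windows of TAP2 and TAPBP and in the other ERAP1 window, which are not printed. The HLA-B and HLA-C windows were identical in 88.5% of aligned columns, and HLA-B carried the kappa B core that these letters do not find in HLA-C. The starts of TAP1 and PSMB9 were 488 bases apart on opposite strands, their windows shared 13 bases, and those 13 bases hold the Y box match of both. The PSMB9 window had no match to the interferon factor core. The TAP1 pair, at -134 and -128 from the TAP1 start, lies between the starts of TAP1 and PSMB9 but outside the PSMB9 window. These matches are letters in a reference window and say nothing of which factor binds there.

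The 6 libraries held 13886120 to 15386107 reads on genes, so that 1 read was worth 0.887 to 1.07 normalized counts. The first principal component, with 57.9% of the variance, separated the groups, and anlotinib replicate 1 (19.1) lay nearer to the DMSO libraries than anlotinib replicates 2 (36.2) and 3 (41.0). DMSO replicate 2 stood apart in interferon-stimulated genes. MX1, an interferon-induced antiviral GTPase, had 87.8, 103 and 69.2 normalized counts in the anlotinib libraries, against 84.6, 541 and 150.1 in the DMSO libraries. Summed over 30 such genes, the anlotinib libraries held 6939, 6052 and 5666 normalized counts, against 6950 in DMSO replicate 1, 12792 in DMSO replicate 2 and 8402 in DMSO replicate 3. The epithelial keratins KRT8 and KRT18 were abundant, with the summed level of 5 epithelial markers at 21419 to 31395 in the anlotinib libraries and 29405 to 29875 in the DMSO libraries. EPCAM, also an epithelial marker, was at 11.5 normalized counts or less.

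Of the 9 genes, 1 fell after anlotinib, none rose, and 8 did not pass the test (limma on log2 values, adjusted p under 0.05). Across all 15734 genes tested, 12.7% were called lower and 10.5% higher, 23.2% in either direction. One lower call among 9 is thus near the background, and no call is particular to these genes. The gene that fell was ERAP1. At an unadjusted p under 0.05, 4 of the 9 were lower and 0 higher, beside 36.0% of all genes tested in either direction. The share of all genes that were lower at that unadjusted level was not computed. By adjusted p, edgeR on whole reads also called 1 lower and 0 higher, at a background of 23.7% in either direction. The median log2 fold change of the 9 genes was -0.20, against -0.02 over all genes tested, and 6 of the 9 values were negative. That median was -0.35 without anlotinib replicate 1 and -0.31 without DMSO replicate 1, but -0.067 without DMSO replicate 2, and it was -0.12 with scaling by library totals. The groups did not overlap for 2 of the 9, ERAP1 and TAP2, in both cases with anlotinib below, a pattern that 21.4% of all genes tested showed. All 9 genes passed the minimum mean of 10 normalized counts in the tested table.

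**Figure D1:**
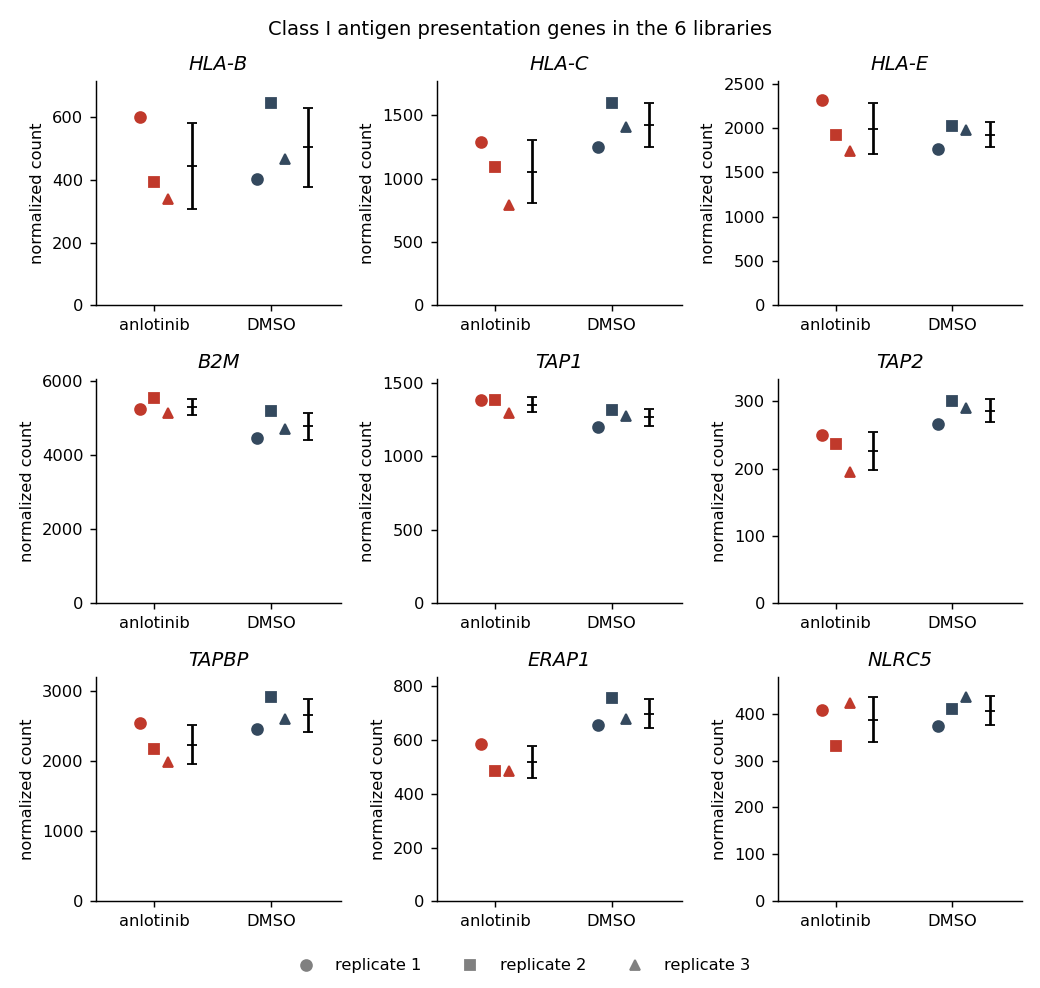
Normalized counts of the 9 genes in each library (vertical axis of each panel), anlotinib left and DMSO right, with circle, square and triangle for replicates 1, 2 and 3 and bars for the mean ± SD (n = 3 each). ERAP1 and TAP2 are the genes whose 3 anlotinib libraries all lie below the 3 DMSO libraries.

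ERAP1 encodes the aminopeptidase of the endoplasmic reticulum that trims the N-terminal end of peptides to the length class I can hold (chromosome 5, 96760810 to 96808100, minus strand, GRCh38). It had 585, 485 and 483 normalized counts in the anlotinib libraries, against 654, 757 and 679 in the DMSO libraries. Every anlotinib library was below every DMSO library. The means were 518 ± 58.4 with anlotinib and 697 ± 53.6 with DMSO (SD, n = 3 each), a 1.35-fold lower level on the log2 scale (log2 fold change -0.43, SE 0.11, limma adjusted p = 0.0123). The value depended on single libraries in part. Without anlotinib replicate 2 the limma adjusted p was 0.0720, and without DMSO replicate 2 it was 0.0705, while the fold change stayed negative in all 17 alternatives (-0.52 to -0.36). Of its exonic bases, 6.94% are also covered by genes on the opposite strand (CAST and AC008906.1), and the strand setting of the counting is not given in the sources used here. ERAP2, its partner with a different trimming preference, averaged 114 normalized counts with anlotinib and 111 with DMSO, and its log2 fold change was 0.07 (limma adjusted p = 0.838).

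HLA-C is a classical heavy chain that also serves as a ligand of inhibitory receptors on natural killer cells (chromosome 6, 31268749 to 31272130, minus strand). It had 1288, 1089.6 and 790.0 normalized counts in the anlotinib libraries, against 1252, 1599 and 1409.8 in the DMSO libraries. Anlotinib replicates 2 and 3 lay below all DMSO libraries, while anlotinib replicate 1 lay just above DMSO replicate 1. Its log2 fold change was -0.45 (SE 0.15, unadjusted 95% interval -0.78 to -0.12), and its limma adjusted p of 0.0509 just missed the threshold. It was called lower in 8 of the 17 alternatives, whose adjusted p ran over 0.000509 to 0.193. Without anlotinib replicate 1, the limma adjusted p was 0.000509 and the log2 fold change -0.61. Without anlotinib replicate 3 the log2 fold change was -0.25 (limma adjusted p = 0.117), and with any other library left out the adjusted p was 0.0722 to 0.193. HLA-C is therefore a gene at the threshold, with a direction that was negative in every alternative.

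HLA-B, the most variable of the heavy chains among people (chromosome 6, 31269491 to 31357188, minus strand), had 599, 394 and 338 normalized counts in the anlotinib libraries, against 401, 644 and 464 in the DMSO libraries. The groups overlapped widely, with anlotinib replicate 1 second only to DMSO replicate 2. The means were 444 ± 138 with anlotinib and 503 ± 126 with DMSO, and the difference was smaller than the spread within either group (log2 fold change -0.20, SE 0.20, limma adjusted p = 0.529). Single libraries moved the value widely. The log2 fold change of HLA-B was -0.43 without anlotinib replicate 1 (limma adjusted p = 0.0282) and -0.34 without DMSO replicate 1 (0.339). It was -0.13 without anlotinib replicate 2 (0.767), -0.021 without anlotinib replicate 3 (0.955) and -0.0027 without DMSO replicate 2 (0.995). Some HLA-B and HLA-C reads can belong to other genes. Of the exonic bases of HLA-B, 18.9% are shared with other annotated genes, mostly an opposite-strand pseudogene (AL671883.2). Of 50-base windows in coding transcripts, 2.12% for HLA-B and 6.17% for HLA-C also occur in other genes, and of 100-base windows, 0% and 0.23%. HLA-E and TAPBP share such windows too, 5.13% each at 50 bases, and 0.60% and 0% at 100 bases. The alleles of A549 cells can differ from the reference at these loci, and their effect on the counts was not tested.

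HLA-E, the least variable heavy chain, which mainly presents leader peptides of other class I chains (chromosome 6, 30489467 to 30494205, plus strand), had 2311, 1924 and 1744 normalized counts in the anlotinib libraries, against 1766, 2025 and 1982 in the DMSO libraries. Anlotinib replicate 1 was the highest of all 6 libraries and anlotinib replicate 3 the lowest. The log2 fold change was 0.04, with an unadjusted 95% interval of -0.19 to 0.28 (limma adjusted p = 0.809). B2M, the light chain shared by all class I molecules (chromosome 15, 44711487 to 44718877, plus strand), had 5244, 5549.8 and 5126 normalized counts in the anlotinib libraries, against 4459, 5179 and 4699.6 in the DMSO libraries. Its means of 5307 ± 219 with anlotinib and 4779 ± 366 with DMSO gave a log2 fold change of 0.15 (interval -0.04 to 0.35, limma adjusted p = 0.244). B2M was thus the gene with the highest positive value of the 9, although it did not pass. When libraries were scaled by their totals, which moves the median of all genes by 0.07, it was called higher (log2 fold change 0.23, limma adjusted p = 0.04998), as were 13.2% of all genes under that scaling. Relative to its light chain, HLA-C was at a ratio of 0.199 ± 0.0458 with anlotinib and 0.296 ± 0.0143 with DMSO (SD, n = 3 each, a description with no test). The summed heavy chains HLA-B, HLA-C and HLA-E came to 3493 ± 668 normalized counts with anlotinib and 3847 ± 425 with DMSO.

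TAP1 and TAP2 form the peptide transporter as a heterodimer. TAP1 (chromosome 6, 32845209 to 32853978, minus strand) had 1381, 1381 and 1293 normalized counts in the anlotinib libraries, against 1202, 1316 and 1276 in the DMSO libraries. Its log2 fold change was 0.10 (SE 0.08, interval -0.08 to 0.28, limma adjusted p = 0.444), the narrowest interval of the 9 genes. TAP2 (chromosome 6, 32821833 to 32838780, minus strand) had 249, 236 and 195 normalized counts in the anlotinib libraries, against 267, 299.9 and 291 in the DMSO libraries. All anlotinib libraries were below all DMSO libraries, and the log2 fold change was -0.34 (SE 0.13, interval -0.61 to -0.07), but the limma adjusted p of 0.0709 did not pass. Within each library the ratio of TAP2 to TAP1 was 0.180, 0.171 and 0.151 with anlotinib, against 0.222, 0.228 and 0.228 with DMSO. The ratios of the groups did not overlap, and their means were 0.167 ± 0.0151 and 0.226 ± 0.00339 (anlotinib, then DMSO, SD, n = 3 each). Among single genes, 40.2% of all genes tested did not overlap in either direction, TAP2 among them. No such share was computed for ratios. A ratio within a library does not depend on the size factor, though it shows unequal levels only and not which subunit differed. Of the exonic bases of TAP2, 32.3% are shared on the same strand with AL669918.1, and of those of TAP1, 9.49% lie opposite PSMB8-AS1, so TAP2 values carry more uncertainty from the counting.

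TAPBP encodes tapasin, which bridges the transporter and the heavy chain and edits the bound peptides (chromosome 6, 33299694 to 33314387, minus strand). It had 2539, 2173 and 1994 normalized counts in the anlotinib libraries, against 2458, 2918 and 2601 in the DMSO libraries. Anlotinib replicate 1 was above DMSO replicate 1, and the other anlotinib libraries were below all DMSO libraries. The log2 fold change was -0.25 (SE 0.10, interval -0.48 to -0.03, limma adjusted p = 0.1001). NLRC5, the class I transactivator (chromosome 16, 56989485 to 57083531, plus strand), had 408, 332 and 422 normalized counts in the anlotinib libraries, against 374, 410.1 and 435 in the DMSO libraries. The groups overlapped, and the log2 fold change was -0.07 (interval -0.33 to 0.18, limma adjusted p = 0.691).

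**Figure D2:**
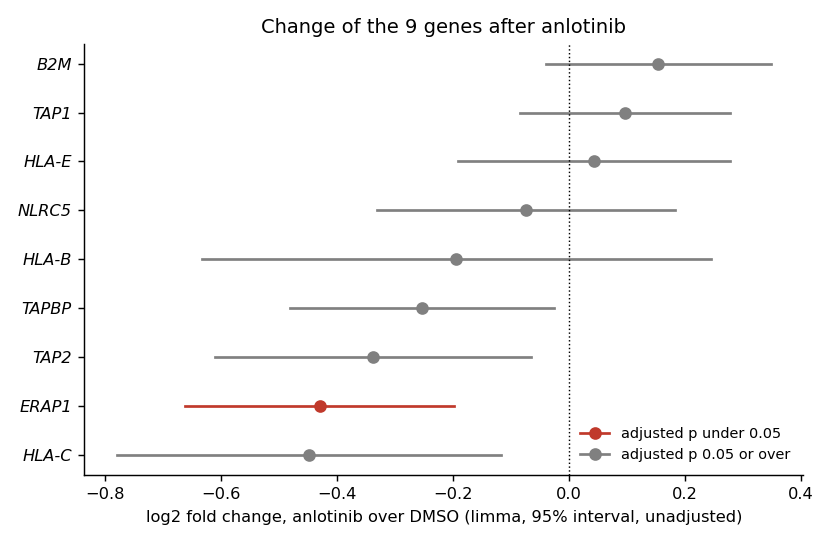
Log2 fold change, anlotinib over DMSO, of the 9 genes from limma (horizontal axis), with unadjusted 95% intervals (n = 3 each). ERAP1 in red is the 1 gene with an adjusted p under 0.05, and the intervals of HLA-C, TAP2 and TAPBP also lie below 0 before adjustment.

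Within each group, most of the 9 genes ranked the libraries in the same order. DMSO replicate 2 was the highest DMSO library for 8 of the 9 genes, against 36.0% of all genes tested, and DMSO replicate 1 the lowest for 9 of 9, against 38.2%. Among the anlotinib libraries, replicate 1 was the highest for 7 of 9 (42.1% of all genes) and replicate 3 the lowest for 8 of 9 (42.4%). On the log2 scale, DMSO replicate 2 exceeded the mean of the other DMSO libraries by a median of 0.18 over the 9 genes (0.02 to 0.57), by 0.82 over 25 tested interferon-stimulated genes and by 0.01 over all genes tested. Anlotinib replicate 1 exceeded the other anlotinib libraries by a median of 0.27 over the 9 genes (-0.03 to 0.71) and by 0.02 over all genes. HLA-B had the largest such gaps, 0.71 in anlotinib replicate 1 and 0.57 in DMSO replicate 2. Their part in the treatment difference was measured by leaving each library out. Without anlotinib replicate 1, 5 of the 9 were called lower by limma, with adjusted p of 0.0282 for HLA-B, 0.000509 for HLA-C, 0.0185 for TAP2, 0.00465 for TAPBP and 0.000357 for ERAP1, at a background of 20.4% called lower. Without DMSO replicate 2, limma called 0 of 9 at a background of 14.4% in either direction, and 1 was at an unadjusted p under 0.05, as were 29.2% of all genes. Without anlotinib replicate 2, limma called 0 of 9 at 12.6%, and 3 were at an unadjusted p under 0.05, as were 27.7% of all genes. Leaving out anlotinib replicate 3 gave 1 call of 9 at a background of 21.7% in either direction, leaving out DMSO replicate 1 gave 1 at 14.7%, and leaving out DMSO replicate 3 gave 1 at 14.7%.

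**Figure D3:**
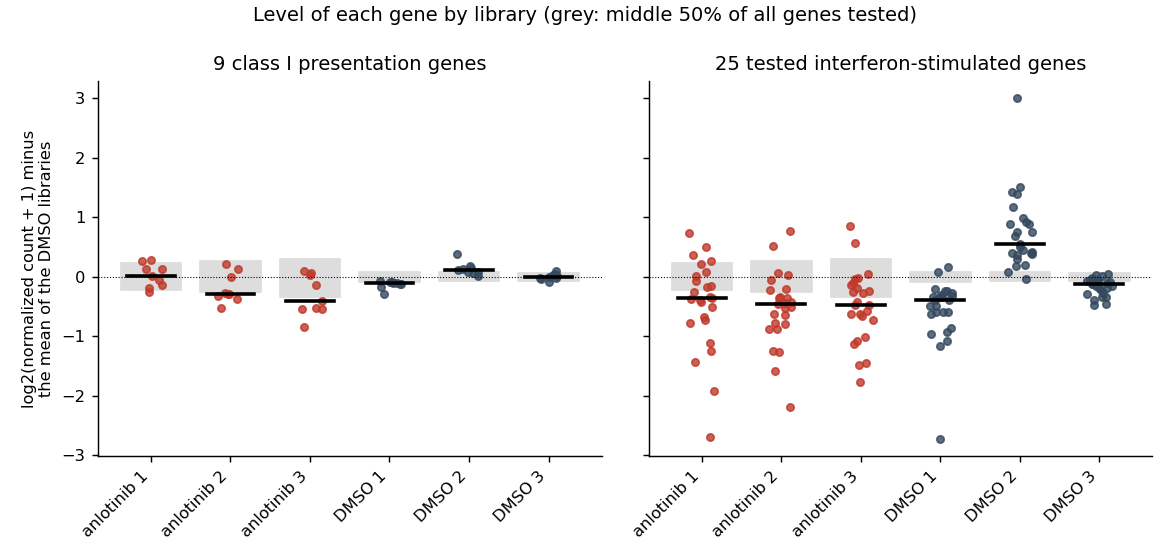
Log2(normalized count + 1) minus the mean of the DMSO libraries (vertical axis) for the 9 genes (left) and 25 tested interferon-stimulated genes (right) in each library, anlotinib left of DMSO. Grey marks the middle 50% of all genes tested and black bars the medians, and DMSO replicate 2 is the highest of the DMSO libraries in both panels.

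**Figure D4:**
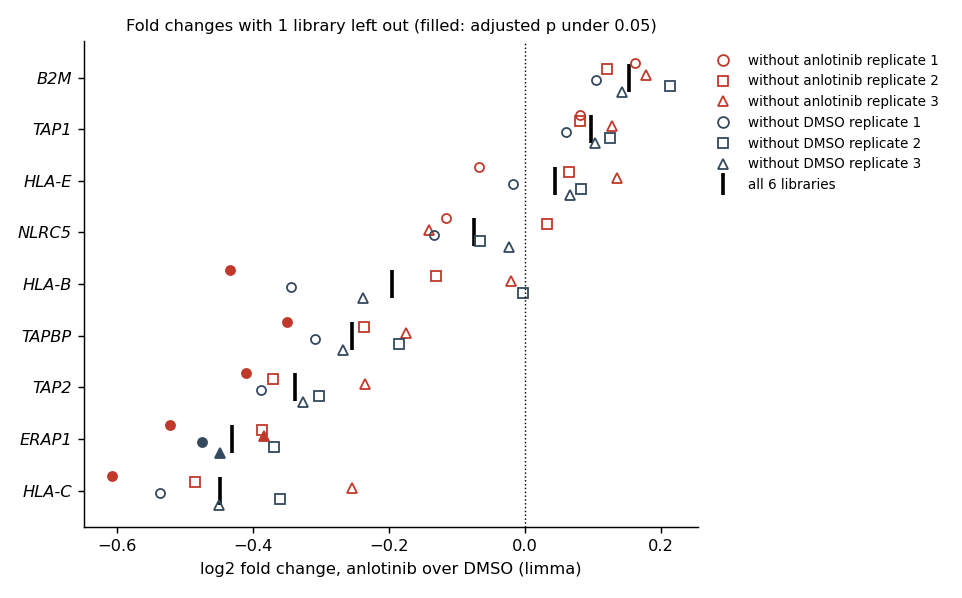
Log2 fold change of the 9 genes (vertical axis) after leaving out each library in turn, filled where the limma adjusted p was under 0.05, with a black bar for all 6 libraries. Filled points number 5 without anlotinib replicate 1 and 0 without anlotinib replicate 2 or DMSO replicate 2.

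The levels of the genes spanned a wide range when divided by the deposited gene length. B2M was the most abundant, at 873 ± 36.0 normalized counts per kilobase with anlotinib and 786 ± 60.2 with DMSO (SD, n = 3 each), a level above 96.2% of the genes tested. HLA-E followed, at 670.0 ± 97.4 with anlotinib and 647 ± 46.7 with DMSO. HLA-C was at 421 ± 100.1 with anlotinib and 566 ± 69.2 with DMSO, and TAPBP was at 442 ± 55.0 with anlotinib and 526 ± 46.6 with DMSO. In the DMSO libraries the ranges of HLA-E and HLA-C overlapped. HLA-C and TAPBP changed places between the groups, and their ranges overlapped in both groups, so their order is not fixed by these data. TAP1 was at 281 ± 10.6 with anlotinib and 263 ± 12.1 with DMSO, and HLA-B was at 145 ± 45.1 with anlotinib and 165 ± 41.3 with DMSO. ERAP1 was at 65.2 ± 7.35 with anlotinib and 87.7 ± 6.75 with DMSO. The lowest were TAP2, at 35.5 ± 4.41 with anlotinib and 44.7 ± 2.69 with DMSO, and NLRC5, at 31.3 ± 3.91 with anlotinib and 32.8 ± 2.5 with DMSO. The ranges of TAP2 and NLRC5 overlapped in the anlotinib libraries but not in the DMSO libraries. NLRC5 lay above 34.3% of the genes tested, so the transactivator was among the less abundant transcripts and the light chain among the most abundant.

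Patterns over the 6 libraries were compared by the root mean square difference of log2 values, each set relative to its own mean, over the 10857 genes averaging 100 normalized counts or more. The genes nearest to TAP1 were GON4L (0.0161) and SH3BGRL (0.0215), and those nearest to TAP2 were DUSP7 (0.0205) and UBE2L3 (0.0229). ERAP1 was nearest to CERK (0.0218) and C12orf75 (0.0286), and TAPBP to SLC39A13 (0.0277) and TRIM59 (0.0282). B2M was nearest to BTG1 (0.0239) and SOX9 (0.0283), and HLA-E to MGST3 (0.0246) and NUDT16 (0.0256). The remaining members had no match as close: HLA-C was nearest to DHRS7B (0.0410) and NHP2 (0.0423), NLRC5 to MYL12AP1 (0.0418) and MITD1 (0.0464), and HLA-B to RPS23 (0.0764) and DHRS4L2 (0.0874). No gene of the set was among the 2 nearest to another. TAP1 was the 37th nearest gene to B2M (0.0484), and HLA-C the 193rd nearest to HLA-B (0.196). These are descriptions over 6 points that share the treatment split.

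The rest of the class I pathway comprised 58 tested genes in 6 lists, of which 3 rose, 11 fell and 44 did not pass (limma), with a median log2 fold change of -0.11. As a share that is 5.17% higher and 19.0% lower, beside the 10.5% and 12.7% given above for all genes. Among 4 other heavy chains, MR1, which presents vitamin B metabolites to MAIT cells, rose (713 ± 49.7 normalized counts with anlotinib, 428 ± 35.2 with DMSO, log2 fold change 0.74, limma adjusted p = 0.000274).

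Of 8 other genes of peptide loading and trimming, 1 rose and 3 fell. Calreticulin, encoded by CALR, the lectin chaperone that holds heavy chains in the loading complex, fell to 6282 ± 1327 normalized counts with anlotinib, against 10719 ± 801 with DMSO (log2 fold change -0.79, limma adjusted p = 0.00120). PDIA3, the oxidoreductase bound to tapasin, fell by 0.31 on the log2 scale (limma adjusted p = 0.0368). UGGT1, which marks misfolded glycoproteins and suboptimally loaded heavy chains for another round with calreticulin, fell by 0.33 (limma adjusted p = 0.0119). TAPBPL, the tapasin-related peptide editor, rose to 158 ± 13.1 normalized counts with anlotinib, against 108 ± 7.88 with DMSO (log2 fold change 0.54, limma adjusted p = 0.0171). The chaperone calnexin (CANX) had a log2 fold change of -0.07 (limma adjusted p = 0.645).

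Of 14 genes of peptide supply, 2 fell and none rose (limma, 0 called higher). PSMB9, a catalytic subunit of the immunoproteasome, had 334, 239.6 and 215 normalized counts in the anlotinib libraries, against 347, 486 and 404 in the DMSO libraries. It fell by 0.66 on the log2 scale (SE 0.17, limma adjusted p = 0.0135). Its head-to-head neighbour TAP1 had the log2 fold change of 0.10 given above, and the ratio of PSMB9 to TAP1 was 0.242, 0.174 and 0.166 in the anlotinib libraries, against 0.289, 0.369 and 0.316 in the DMSO libraries. The ratios of the groups did not overlap. PSMB9 itself did not overlap either, as was so for 40.2% of all genes tested in either direction, and no share was computed for ratios. Of the exonic bases of PSMB9, 5.66% are shared with another gene on the same strand. PSMB8, another immunoproteasome subunit, averaged 429 ± 90.3 normalized counts with anlotinib and 479 ± 48.2 with DMSO (log2 fold change -0.17, limma adjusted p = 0.409). Its log2 fold change was -0.33 without anlotinib replicate 1 (limma adjusted p = 0.0303), -0.036 without anlotinib replicate 3 and -0.096 without DMSO replicate 2. THOP1, a cytosolic oligopeptidase that destroys peptides, fell by 0.60 (limma adjusted p = 0.00344).

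Of 14 regulators of class I transcription, 2 fell and 12 did not pass. EZH2 and EED, subunits of the Polycomb repressive complex that can silence class I genes, fell by 0.53 and 0.34 (limma adjusted p = 0.00695 and 0.0319). SUZ12, a further core subunit of that complex, had a log2 fold change of 0.02 and did not pass (limma adjusted p = 0.899). The module-binding RFX5 had a log2 fold change of 0.09 and IRF1 of 0.02, and neither passed. Of 10 interferon receptors and signal genes, 3 fell and 7 did not pass. The kinases JAK1 and TYK2 fell by 0.55 and 0.39 (limma adjusted p = 0.000520 and 0.0154), and SOCS3, an inhibitor of such kinases, fell by 0.46 (limma adjusted p = 0.00303). The receptor genes IFNGR1, IFNGR2, IFNAR1 and IFNAR2 did not pass, with log2 fold changes of 0.20, -0.03, -0.15 and -0.03. Of 8 genes of class I turnover, 1 rose and 1 fell. MARCH4, a membrane ubiquitin ligase that can remove class I from the surface, fell to 727 ± 75.4 normalized counts with anlotinib, against 1526 ± 96.7 with DMSO (log2 fold change -1.07, limma adjusted p = 1.21e-05). SUSD6, a membrane protein that directs class I to lysosomes, rose to 561 ± 70.1 with anlotinib, against 336 ± 19.5 with DMSO (log2 fold change 0.73, limma adjusted p = 0.000616).

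**Figure D5:**
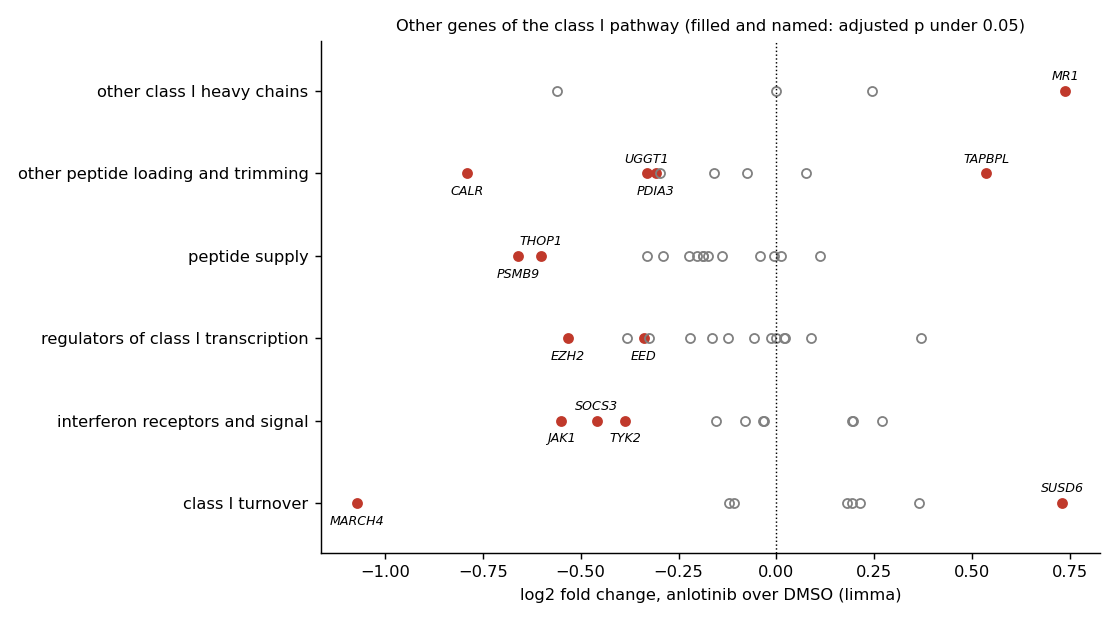
Log2 fold change, anlotinib over DMSO, of the 58 tested genes of the rest of the pathway in 6 lists (n = 3 each), filled and named where the limma adjusted p was under 0.05. MR1, TAPBPL and SUSD6 lie above 0 among the named genes and 11 lie below, with MARCH4 the lowest.

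Of these 14 calls, 8 held under all 17 alternatives: MR1, CALR, THOP1, EZH2, JAK1, SOCS3, MARCH4 and SUSD6. Without anlotinib replicate 2, the limma adjusted p was 0.0844 for UGGT1, 0.0555 for TAPBPL, 0.0971 for PDIA3, 0.0671 for PSMB9, 0.135 for EED and 0.0739 for TYK2. Without DMSO replicate 2, it was 0.0610 for UGGT1, 0.130 for PDIA3, 0.0743 for PSMB9, 0.115 for EED and 0.0514 for TYK2. Without DMSO replicate 3, it was 0.0504 for UGGT1, 0.0653 for TAPBPL, 0.143 for PDIA3, 0.0779 for EED and 0.0656 for TYK2. Without DMSO replicate 1, it was 0.0632 for TAPBPL, 0.0728 for PDIA3, 0.0949 for EED and 0.0619 for TYK2, and without anlotinib replicate 3, 0.0582 for PDIA3. Other settings ended some calls as well. The adjusted p of PDIA3 was 0.0572 with no filter, and that of EED was 0.115 with library totals, 0.0727 with DESeq2 and 0.0506 with no filter. The count of calls was 14 with all libraries, 23 without anlotinib replicate 1, 8 without anlotinib replicate 2 and 9 without DMSO replicate 2. The share of all genes called moved the same way, at 23.2% with all libraries, 34.8% without anlotinib replicate 1, 12.6% without anlotinib replicate 2 and 14.4% without DMSO replicate 2.

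Interferon-stimulated genes were read beside the 9 because interferon raises both. Of 25 tested, 1 rose, 3 fell and 21 did not pass (limma), beside 10.5% of all genes tested called higher and 12.7% called lower. The lower calls are thus near the background. The median log2 fold change was -0.44. GBP1, an interferon-induced guanylate-binding protein, fell to 56.7 ± 6.67 normalized counts with anlotinib, against 198 ± 55.0 with DMSO (log2 fold change -1.76, limma adjusted p = 6.44e-05). OAS3, an oligoadenylate synthetase, fell to 1482 ± 409.7 with anlotinib, against 3297 ± 852 with DMSO (log2 fold change -1.16, limma adjusted p = 0.000931). DTX3L, a ubiquitin ligase, fell by 0.43 (limma adjusted p = 0.0426, and 0.183 without DMSO replicate 2, 0.137 without anlotinib replicate 2, 0.0922 without DMSO replicate 3, 0.0561 without anlotinib replicate 3 and 0.0716 with library totals). Its log2 fold change was -0.25 without DMSO replicate 2. IFIT2 rose, with a log2 fold change of 0.78 (limma adjusted p = 0.0441), a call lost without anlotinib replicate 2 (0.118), anlotinib replicate 3 (0.0776), DMSO replicate 1 (0.187, with a log2 fold change of 0.48) or DMSO replicate 3 (0.137), and with edgeR (0.0579). Without DMSO replicate 2, GBP1 had a log2 fold change of -1.55 and OAS3 of -0.96, and both stayed called (limma adjusted p = 0.000499 and 0.00549). DMSO replicate 2 was the highest DMSO library for 23 of the 25, with the median gap of 0.82 given above.

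The authors' deposited table gave log2 fold changes close to these and called 2 of the 9 genes lower and 0 higher, at a background of 5.83% called lower among 30483 genes. Among the 17480 genes that DESeq2 gave an adjusted p on the recovered reads, 10.2% were called lower. In the authors' deposited table ERAP1 had a log2 fold change of -0.43 with an adjusted p of 0.00802, and HLA-C had -0.43 with an adjusted p of 0.0336. The authors' deposited table gave adjusted p of 0.116 for TAPBP, 0.143 for TAP2 and 0.297 for B2M, so those 3 were not called in either source. ERAP1 was thus called in both, and HLA-C in the deposited table only.

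Most markers of other cells in the table averaged under 10 normalized counts, but not all did. By limma, 1 of 2 tested leukocyte markers and 1 of 2 tested class II markers were called higher. The 1 tested fibroblast marker was called lower. Of the 4 tested epithelial markers, whose sum is given above, 2 were called higher, and the other 2 had negative log2 fold changes and did not pass. Of all genes tested, 10.5% were called higher and 12.7% lower. Among 7 leukocyte markers, 5 were in the table, 3 of them under 10 normalized counts in every library, and PTPRC, the pan-leukocyte marker CD45, was at 2.02 or less. Their summed level was 361 to 387 normalized counts in the anlotinib libraries and 157 to 170.3 in the DMSO libraries, carried by CD14 and by ITGAX, which had 270.4, 287 and 303 in the anlotinib libraries and 84.6, 98.96 and 66.7 in the DMSO libraries. Of 10 markers of class II-bearing antigen-presenting cells, 5 were in the table, with a sum of 78.9 to 95.8 in the anlotinib libraries and 61.0 to 81.1 in the DMSO libraries, and CD74 was at 10.6 or less. Fibroblast markers summed to 72.3 to 99.9 in the anlotinib libraries and 111 to 115 in the DMSO libraries, and endothelial markers to at most 7.09. The part of these markers in the results was not tested.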

How the data were processed

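RNA of 6 libraries of A549 cells, 3 per group, was analysed. Per the labels' protocols, RNA was extracted with Trizol and the libraries were made with a SMARTer kit. No aligner, counter or strand option is given in the sources used here. Per the submitters' processing notes the build was mm9, a mouse assembly, but the coordinates of all 30483 deposited genes equal GENCODE release 29 on GRCh38, which is used here. The deposited signal, per the file headers, is normalized counts. Every value was a whole multiple of 1 step per library (within 1e-06). The authors also deposited a log2 fold change, a p-value and an adjusted p-value per gene. The other 5 files repeat single libraries.

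The 15734 genes averaging 10 normalized counts or more were tested with limma-trend (limma 3.58.1, R 4.3.3) on log2(normalized count + 1), fitting treatment alone, Benjamini-Hochberg adjustment over all of them and a threshold of 0.05. Fold changes are on that scale and understate those of low genes. The test was checked on simulated counts with the same spread setting for every gene and no library set apart. That check therefore does not cover differences between libraries such as those described above. The depth was 13886120 to 15386107 reads per library, and intervals are unadjusted. With 3 against 3 libraries, an exact permutation test of 1 value cannot go below 0.1, so none was used. No 2 libraries were alike within sampling noise. Alternatives, 17 in all, were other pseudocounts (0.5, 5), minimum means (1, 50, none), TMM or library totals, edgeR 4.0.16, DESeq2 1.42.0 and limma-voom on the recovered whole reads, the replicate number as a block, and leaving out each library.

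The members and the lists were chosen with earlier results of these data known. Of 136 symbols outside the 9 genes, 127 were matched, 3 by gene identifier. Genes were named by rule: all 9 members, the genes of each other list that passed (the 4 with the smallest p where more than 4 did), PSMB8 and PSMB9, and the 2 genes nearest in pattern to each member. Other genes that did not pass were named after their values were seen, as were the promoter motifs. Some genes of these lists are not reported here.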

Additional observations from a re-analysis of the deposited data

How the results depend on the processing

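Of 153 values of the 9 genes under 17 alternatives, 136 kept their direction and side of the threshold, 12 newly passed, 2 no longer passed and 3 turned. The count of members called was 1 with limma on all libraries, where 23.2% of all genes were called in either direction. It was 2 with a pseudocount of 5 (23.4% of all genes called), a minimum mean of 1 (15.0%) or TMM scaling (23.2%). It was also 2 with DESeq2 (18.2%), limma-voom (23.5%) or the replicate block (22.6%). Scaling by library totals gave 3 (B2M higher, ERAP1 and HLA-C lower), with 23.0% of all genes called. Leaving out 1 library gave 0 to 5, with 12.6% to 34.8% of all genes called. The values that turned were HLA-E (log2 fold change -0.068 to 0.13 with 1 library left out, negative without anlotinib replicate 1 or DMSO replicate 1) and NLRC5 (-0.14 to 0.032, positive without anlotinib replicate 2). The cause was not tested. The rest of the pathway gave 8 to 23 calls when 1 library was left out, against 14. Over all genes, limma called 1645 higher and 2003 lower, against 2075 higher and 1553 lower with library totals. The values gave no sign that the replicate numbers pair the samples (correlations of -0.04, 0.03 and -0.0029 for numbers 1, 2 and 3). The labels do not say whether they do. With the block, 2 members were called, the added one HLA-C (limma adjusted p = 0.0391), and 13 genes of the rest of the pathway, without PDIA3 (0.0530). The depth was not varied, and the intervals of HLA-B, HLA-E, B2M, TAP1 and NLRC5 include 0.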

Other observations

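Ligands read by natural killer cells and T cells together with class I were also measured. Of 16 tested, 2 rose, 2 fell and 12 did not pass (limma), beside 10.5% of all genes tested called higher and 12.7% called lower. MICA, a stress-induced ligand of the NKG2D receptor, rose to 583 ± 24.0 normalized counts with anlotinib, against 343 ± 41.5 with DMSO (log2 fold change 0.77, limma adjusted p = 0.000385). ULBP1, another NKG2D ligand, rose to 233 ± 6.83 with anlotinib, against 139 ± 6.84 with DMSO (log2 fold change 0.74, limma adjusted p = 0.000997). PVR, the ligand of DNAM-1 and TIGIT, fell to 1976 ± 86.4 with anlotinib, against 3281 ± 136 with DMSO (log2 fold change -0.73, limma adjusted p = 6.1e-05). PDCD1LG2, which encodes the PD-1 ligand PD-L2, fell to 10.0 ± 4.81 with anlotinib, against 45.6 ± 9.18 with DMSO (log2 fold change -2.18, limma adjusted p = 0.00137). HLA-DMA, a class II peptide-loading gene named after its values were seen, had 62.5, 56.1 and 49.6 normalized counts in the anlotinib libraries, against 22.5, 36.7 and 31.8 in the DMSO libraries (log2 fold change 0.89, limma adjusted p = 0.0210). The other of the 2 tested class II markers had a negative log2 fold change and did not pass. The median of the 2 was 0.07, so HLA-DMA does not stand for that list.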
